A study of Mus musculus with 3 samples.

Results

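The D-type cyclins, their partner kinases CDK4 and CDK6, the 4 INK4 inhibitors and the inhibitor p27 form the switch that commits a mammalian cell to divide. Probe sets, the groups of array probes that read 1 transcript, were taken where the platform's gene annotation names one of 10 genes: Ccnd1, Ccnd2, Ccnd3, Cdk4, Cdk6, Cdkn1b, Cdkn2a, Cdkn2b, Cdkn2c and Cdkn2d. The rule uses gene names and no values, though the list was drawn up with earlier results of these data known. All 10 were found, in 11 probe sets, among 19938 genes that have a probe set of their own, and all 10 were among the 9969 genes past the expression filter. That filter keeps genes whose mean over the 3 columns reaches the median of all genes, 7.13 on the log2 scale.

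In outline, growth signals raise the D cyclins, which bind CDK4 or CDK6 and start the phosphorylation of the retinoblastoma protein, and E2F transcription factors then turn on genes of S phase. INK4 proteins bind CDK4 and CDK6 and keep the cyclin away. The protein p27 blocks cyclin E-CDK2 and is held by cyclin D-CDK complexes. Ccnd1 has been reported as a target of miR-17 and miR-20a, and the CT26 line has been described as carrying a homozygous deletion of Cdkn2a.

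CT26 is a mouse colon carcinoma line. Cells were transfected either with PIG-miR-Ctrl Vector, which carries a control microRNA, or with PIG-miR-17~92 WT, which carries the microRNA cluster miR-17~92. All were selected with puromycin, sorted as GFP+ and cloned by dilution, so every group, the control included, is clonal and carries a vector. The groups are miR-Ctrl (here Ctrl), miR-17~92Med with a medium level of the cluster (Med) and miR-17~92Hi with a high level (Hi). The design names 3 subclones a group, yet there is 1 column of values for each. Nothing used here says whether such a column is 1 subclone, a pool or a mean. There are therefore no replicates: no error or p-value can be attached to any difference below, and "higher" and "lower" refer to the 3 columns as deposited. A difference of 2-fold or more, 1 on the log2 scale, is used as a mark of size.

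The Ctrl column stood apart from both others, and no source used here says whether it was processed together with them. Each group is also clonal. In every difference from Ctrl, the cluster, differences between clones and the handling of that column therefore cannot be told apart. Across all 35556 probe sets Pearson's r of Ctrl was 0.787 to Med and 0.795 to Hi, beside 0.992 between Med and Hi (probe sets are not independent replicates). Olfactory and vomeronasal receptor genes (1194), which this line is not known to use and which gauge the background, had a median of 4.92 (Ctrl) and of 4.51 in each of Med and Hi. Their 95th percentiles were 6.87, 6.18 and 6.20. All 11 probe sets of the members lay above that percentile in each column, which does not by itself show that a transcript was present. No probe set tested the labels here: the cluster's host transcript Mir17hg had a level of 5.98 (Ctrl) and of 6.02 in both others, inside the receptor range. Of 9 colon epithelium markers, the keratins Krt8, Krt18 and Krt19 lay above the receptors' 95th percentile in every column and Cdh1 did so in Med and Hi, whereas Epcam, Krt20, Vil1, Cdx2 and Cdh17 lay below it throughout. Of the other markers, Cd3e and Cd68 (leukocyte), Col1a1, Col1a2 and Thy1 (fibroblast) and Pecam1, Cdh5 and Vwf (endothelium) lay above it in every column. The summed linear level of the epithelial markers was 1426 (Ctrl), 3371 (Med) and 5697 (Hi), carried by Krt18 (log2 levels 7.97, 11.41 and 12.28). Krt8 was at 8.92, 7.28 and 7.32, and Epcam, Cdh1, Krt20, Vil1, Cdx2 and Cdh17 also lay below Ctrl in both columns, while Krt19 was equal in Med and 0.38 higher in Hi. The leukocyte sum was 577, 785 and 438 and followed Cd68 (7.18, 9.12 and 7.67), whereas Cd3e, Ptprc, Itgam and Lyz2 lay below Ctrl in both columns. The fibroblast sum was 1342, 579 and 599 and the endothelial sum 711, 370 and 365, and each of their markers lay below Ctrl in both columns. The part of other cell states in the differences below was not tested.

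The microRNAs whose level the groups were built to vary are shown here because they are the designed difference between the columns. Their mature sequences are from RefSeq (GRCm38.p6, plus strand), 5′ to 3′, with the seed, bases 2 to 8, in capitals.
miR-17-5p, chr14:115043684-115043706: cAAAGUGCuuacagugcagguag
miR-20a-5p, chr14:115044183-115044205: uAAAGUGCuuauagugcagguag
miR-18a-5p, chr14:115043867-115043889: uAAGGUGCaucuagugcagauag
miR-19a-3p, chr14:115044048-115044070: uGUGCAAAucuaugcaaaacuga
miR-19b-3p, chr14:115044358-115044380: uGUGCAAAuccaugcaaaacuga
miR-92a-3p, chr14:115044476-115044496: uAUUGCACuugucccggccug
These 6 sequences hold 4 different seeds: miR-17 and miR-20a share one, miR-19a and miR-19b share another, and miR-18a and miR-92a have one each. The members' transcripts were not searched for matches to these seeds.

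The first question was how cells with the cluster differ from the control column in this switch. Ccnd1, Ccnd2, Cdk4 and Cdk6 were at least 2-fold higher in both Med and Hi than in Ctrl, and no member was 2-fold lower. That is 4 of 10 members higher in both, where 32.2% of all genes past the filter were. Taken singly, 34.9% were 2-fold higher in Med and 33.5% in Hi, and 8.7% and 8.4% were 2-fold lower, together 43.6% and 41.8% apart. The members' share is close to that background, so the count says nothing particular about the switch. The background itself depends on the filter. Over all 19938 genes, 18.3% were 2-fold higher in Med and 17.5% in Hi, and 16.3% and 15.4% were lower. The columns also differed in spread, with interquartile ranges over all probe sets of 2.42 (Ctrl), 3.12 (Med) and 3.08 (Hi). The part of level and spread in these differences was not tested. Both comparisons share the Ctrl column, and a change in the share of cycling cells cannot be told apart from one in the RNA of each cell. The members' median difference was 0.40 in Med and 0.49 in Hi, beside 0.42 and 0.39 over all genes past the filter. By role, 2 of 3 D cyclins and both kinases were 2-fold higher, and none of the 4 INK4 genes nor the p27 gene was. Which members pass 2-fold depends on how the columns are scaled: Ccnd2 and Cdk6 passed under each of the 7 processing choices tried for single genes, while Ccnd1 and Cdk4 did not. These 7 include the values as deposited. Taking the brightest probe set, or a floor at the receptors' 95th percentile, left these 4 genes unchanged.

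**Figure D1:**
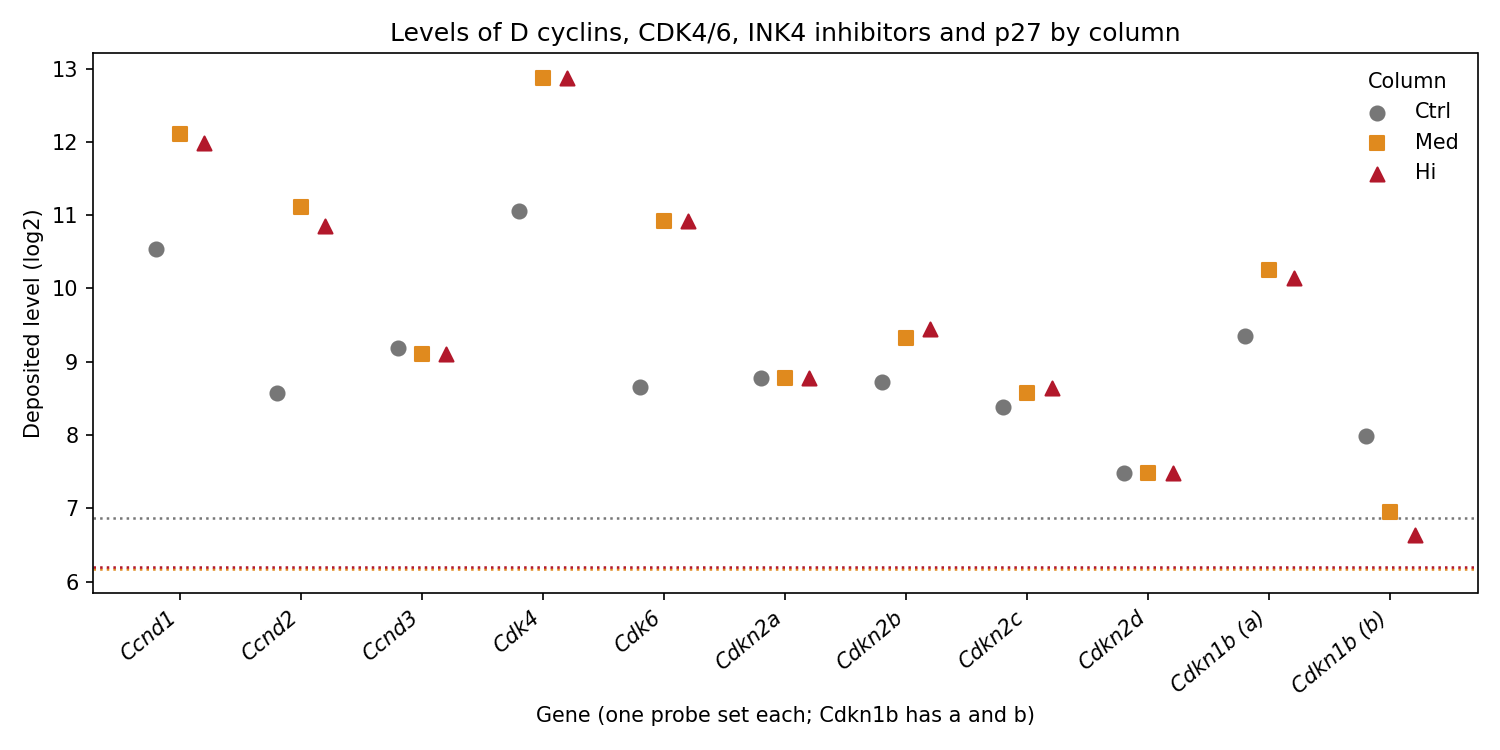
Deposited log2 level (vertical axis) of each member's probe set in the Ctrl (circle), Med (square) and Hi (triangle) columns; dotted lines mark the 95th percentile of receptor genes in the column of the same colour, and Cdkn1b has the probe sets 10542310 (a) and 10542317 (b). Levels are to be compared within a gene only: Ccnd1, Ccnd2, Cdk4 and Cdk6 lie higher in Med and Hi, Cdkn2a and Cdkn2d are at 1 level in all 3 columns, and the Cdkn1b probe sets move in opposite directions.

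Cyclin D2, encoded by Ccnd2, had the largest difference from Ctrl among the members in the deposited values, with Cdk6 next to it in Hi. Its probe set had levels of 8.58 (Ctrl), 11.11 (Med) and 10.85 (Hi). The log2 difference was 2.54 in Med and 2.27 in Hi, that is 5.80-fold and 4.81-fold. Among all genes past the filter, these differences lay at percentile 90.5 and 88.7. So about 1 gene in 10 was further above Ctrl than this cyclin. Over the processing choices the difference of Hi ran from 1.33 (quantile normalization) to 2.55 (columns centred on the median of all genes).

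Cyclin D1, encoded by Ccnd1, had levels of 10.53 (Ctrl), 12.11 (Med) and 11.98 (Hi). Its log2 difference was 1.57 in Med and 1.45 in Hi, or 2.98-fold and 2.72-fold, at percentiles 76.6 and 75.8. Med and Hi were both above Ctrl, with Hi the lower of them. The size of this difference rests on scaling: it was 0.98 in Med and 0.91 in Hi with columns centred on the median of genes past the filter, 0.53 and 0.45 with cyclic loess, and 0.19 and 0.07 with quantile normalization.

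Cyclin D3, encoded by Ccnd3, did not follow the other D cyclins. It had a level of 9.19 (Ctrl) and of 9.11 in both Med and Hi, a difference of -0.07 at percentile 23.5 in Hi. With quantile normalization it was 2-fold lower than Ctrl (-1.10 in Med and -1.06 in Hi), and with columns centred on the median of all genes its sign turned (0.23 and 0.21).

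Both kinases were higher in the columns with the cluster. Cdk4 had a level of 11.06 (Ctrl) and of 12.88 in both Med and Hi, a difference of 1.82 (3.52-fold) at percentile 81.3 in Med and 82.5 in Hi. Cdk6 had a level of 8.65 (Ctrl) and of 10.92 in both others, a difference of 2.26 (4.80-fold) at percentiles 87.6 and 88.6. Med and Hi held the same value for each kinase, as they did for 45.9% of genes past the filter. That equality is not read as unchanged expression. Under quantile normalization the difference of Cdk4 was 0.57 in both columns and under cyclic loess 0.79 in Med and 0.83 in Hi, below 2-fold, while that of Cdk6 stayed at 1.25 or more.

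The INK4 genes lay close to Ctrl in the deposited values. Cdkn2b, which encodes p15INK4b, had levels of 8.73 (Ctrl), 9.33 (Med) and 9.44 (Hi), differences of 0.60 and 0.72 (1.51-fold and 1.64-fold). Cdkn2c, which encodes p18INK4c, was at 8.38, 8.57 and 8.65, differences of 0.19 and 0.27. Both genes were ordered Ctrl, Med, Hi, in steps of 0.60 or less. For both, the sign against Ctrl turned under quantile normalization, to -0.15 for Cdkn2b and -0.40 for Cdkn2c in Hi, so no direction against Ctrl is given.

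Cdkn2a and Cdkn2d held the same value in all 3 columns. Cdkn2a, which encodes p16INK4a and, from another reading frame, the p53 activator p19ARF, was at 8.78. Cdkn2d, which encodes p19INK4d, was at 7.48. The values were equal to every deposited digit, as they were in 10.5% of genes past the filter and in 13.9% of receptor genes. How such equal values arose was not tested, and they are not read as unchanged expression. Since whole columns shift under other scalings, the equal values gave differences of Hi from Ctrl between -0.80 and 0.28 for Cdkn2a and between -0.54 and 0.28 for Cdkn2d. The level of Cdkn2a was above the 99th percentile of receptor genes in each column, and that of Cdkn2d was below it in Ctrl (7.72). Since CT26 has been described as lacking Cdkn2a, a level above the receptors' percentiles does not by itself show a transcript. Whether either probe set read its transcript was not tested.

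The p27 gene Cdkn1b has a pair of probe sets, and they disagreed. Probe set 10542310 had levels of 9.36 (Ctrl), 10.25 (Med) and 10.15 (Hi), differences of 0.89 and 0.79. Probe set 10542317 was at 7.99, 6.94 and 6.64, differences of -1.04 and -1.35, more than 2-fold lower. One thus lay above Ctrl in both columns and the other below it. Their mean, 8.67, 8.60 and 8.39, hides both, and its difference of -0.28 in Hi is no measure of either. Of the 662 genes past the filter with several probe sets, 149 (22.5%) had probe sets on opposite sides of Ctrl in Hi, and 106 (16.0%) had a gap between them as wide as the 2.15 of Cdkn1b. From Med to Hi both of its probe sets were lower, by values of -0.10 and -0.31.

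**Figure D2:**
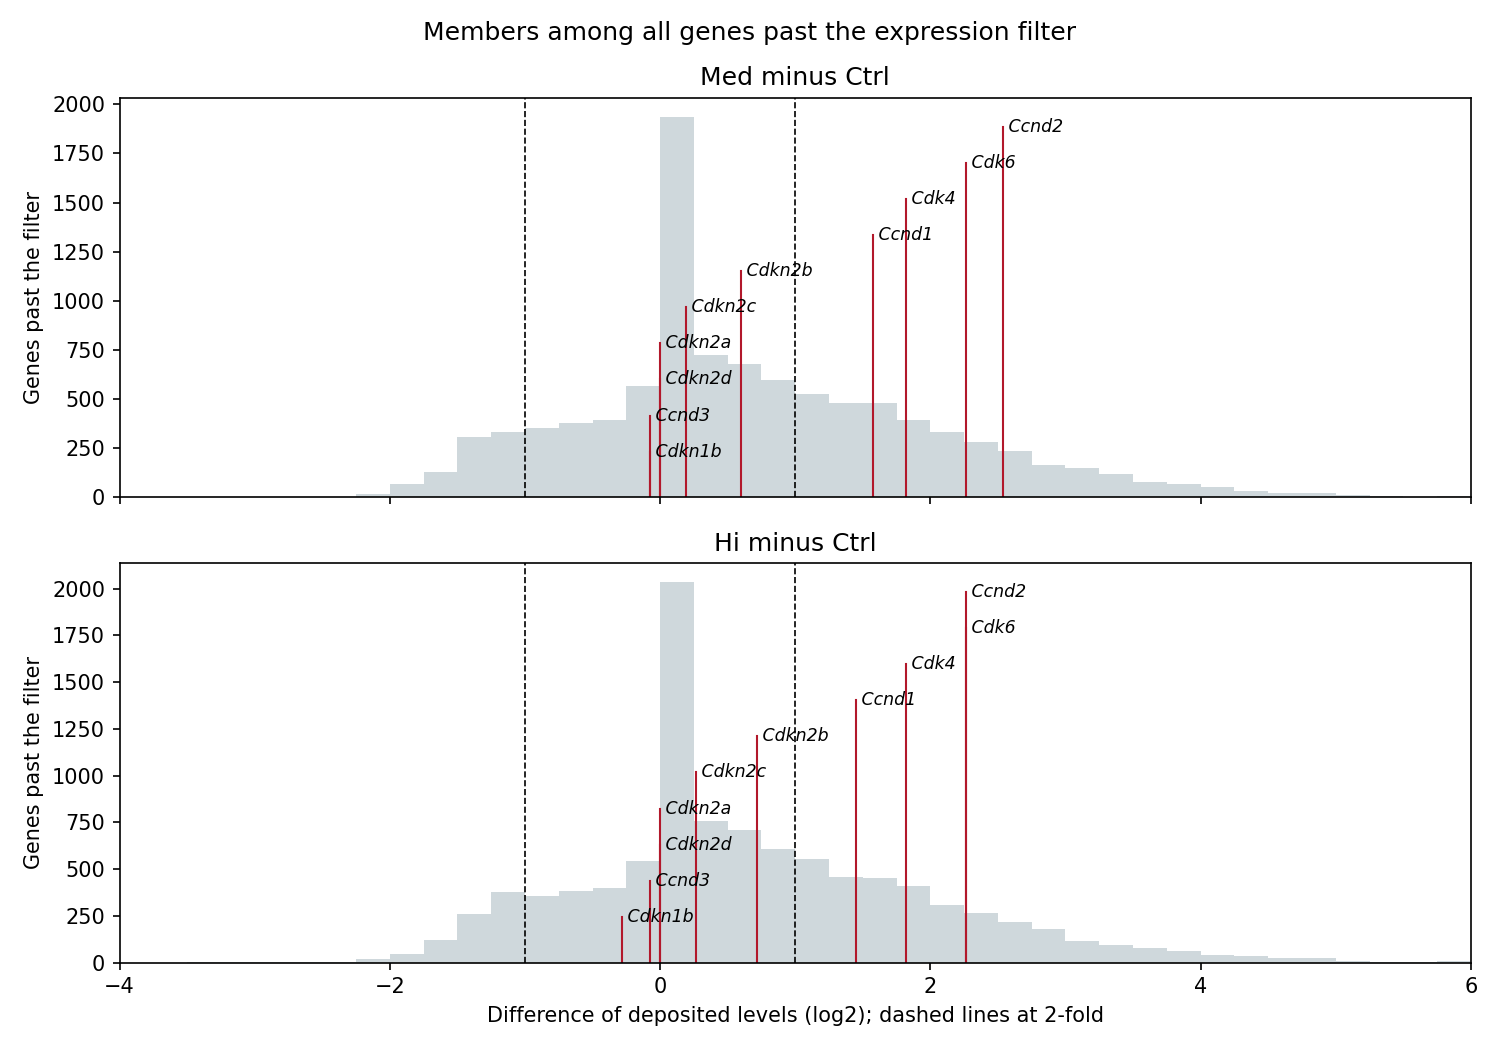
Histograms of the log2 difference of Med (top) and Hi (bottom) from Ctrl over the 9969 genes past the filter, in bins of 0.25, with red lines at the members and dashed lines at 2-fold; the height of a red line has no meaning, the axis leaves out the few genes beyond its ends, and the bin that starts at 0 holds the genes with equal values. Ccnd1, Cdk4, Cdk6 and Ccnd2 lie past 2-fold but inside the broad right shoulder that many genes share.

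**Figure D3:**
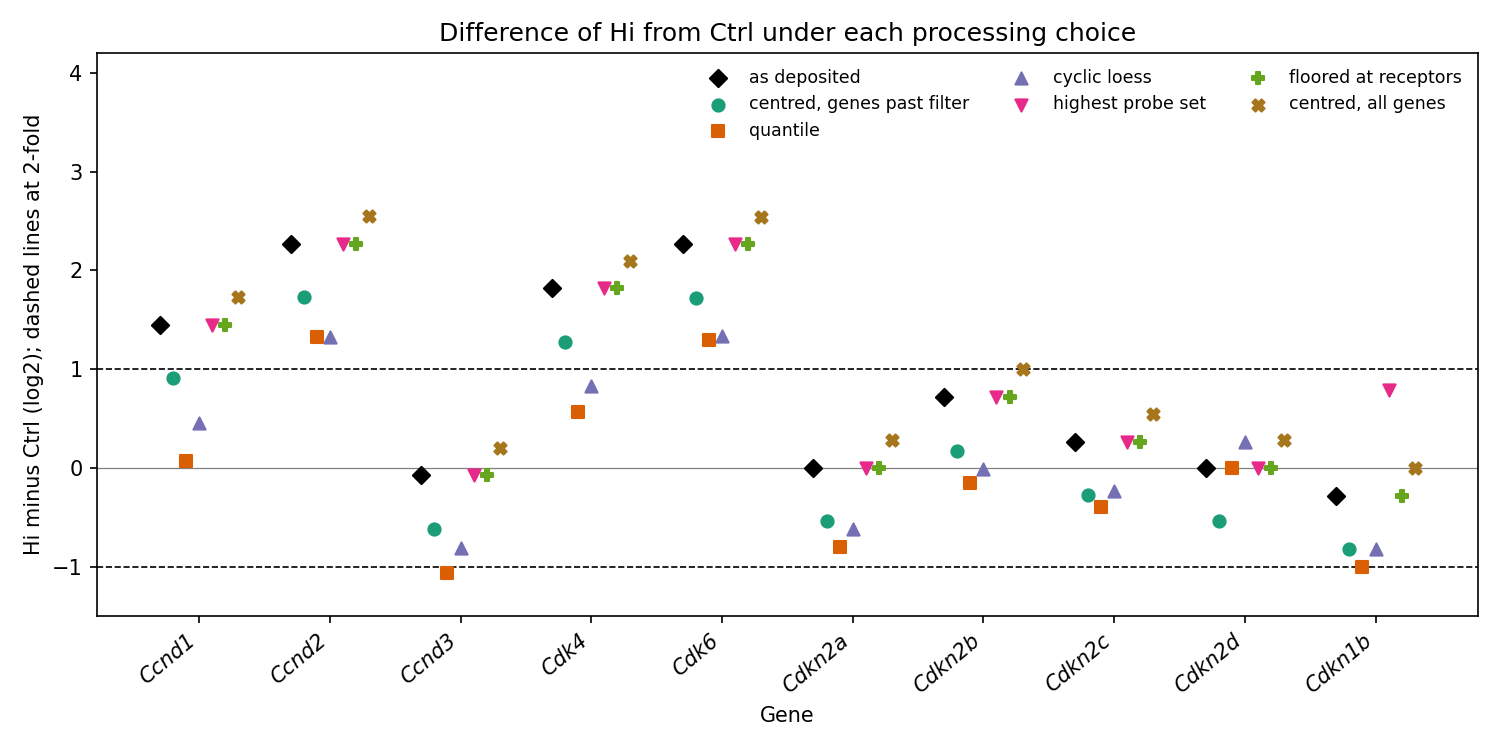
Log2 difference of Hi from Ctrl for each member under 7 processing choices, with dashed lines at 2-fold. Ccnd2 and Cdk6 stay above the upper line under each choice, Ccnd1 and Cdk4 cross it, and the 4 INK4 genes spread on both sides of 0.

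The second question, whether a high level of the cluster differs from a medium one, does not involve the Ctrl column except through the filter. With 1 column for each clonal group, the level of the cluster and differences between clones cannot be told apart here either. None of the 10 members was 2-fold apart between Hi and Med, where 0.682% of genes past the filter were 2-fold higher and 0.863% lower, together 1.54%. Ccnd2 had the largest difference, -0.27, and Ccnd1 differed by -0.13. These are falls to 0.831 and 0.915 of the Med level on the linear scale, at percentiles 11.1 and 18.4 of all genes. Cdkn2b was higher by 0.12 and Cdkn2c by 0.07, at percentiles 88.1 and 84.7. The D cyclins that differed were thus lower in Hi, and the INK4 genes that differed were higher. Each of these 4 signs was the same under all 7 processing choices, though only quantile, loess and both centred scalings could move them. Over all genes past the filter the same difference ran from -0.29 (percentile 10) to 0.15 (percentile 90), and all 10 members lay inside that range. Ccnd3, Cdk4, Cdk6, Cdkn2a and Cdkn2d (5 of 10) had the same value in Med and Hi, as had 45.9% of all genes past the filter. Among receptor genes 69.2% had. How such equal values arose was not tested, so here and in the lists below they are not read as unchanged expression.

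Genes downstream of the switch were compared from lists of its known partners and targets. Of 16 downstream cyclins, kinases and regulators past the filter (20 listed, 18 measured), 10 were lower in Hi, 1 higher and 5 equal, with a median of -0.21. Over all genes past the filter 31.3% were lower, 22.8% higher and 45.9% equal, with a median of 0. Against Ctrl, 5 of the 16 were 2-fold higher in Hi and 2 lower, beside 33.5% and 8.4% of all genes. With columns centred on the median of genes past the filter the counts were 3 and 3, beside 22.4% and 16.4% of all genes. Quantile normalization gave 4 and 3 (25.2% and 18.5%), and cyclic loess 4 and 2 (24.8% and 9.7%). Centring on the median of all genes gave 7 and 2 (40.5% and 4.2%). Cyclin B2 (Ccnb2), which drives entry into mitosis, had levels of 8.79 (Ctrl), 9.56 (Med) and 7.29 (Hi), a difference of -2.27 from Med. Cyclin A2 (Ccna2), a partner of CDK2 and CDK1, was at 7.18, 10.69 and 9.93, a difference of -0.75. So for both, Hi lay below Med, and only Ccnb2 lay below Ctrl. Cks1b, a cofactor in the degradation of p27, was at 8.50, 11.18 and 10.89.

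Of 13 pocket proteins and E2F factors, all measured and past the filter, 10 were lower in Hi than in Med and 3 equal, with a median of -0.11, where 31.3% of all genes were lower. Against Ctrl, 5 were 2-fold higher in Hi and 1 lower (33.5% and 8.4% of all genes). With columns centred on the median of genes past the filter 0 were higher and 2 lower (22.4% and 16.4% of all genes). That centring puts the median of this list at -0.05. Quantile normalization gave 5 higher and 3 lower (25.2% and 18.5% of all genes), with a median of 0.38. Cyclic loess gave 4 and 3 (24.8% and 9.7%), with a median of 0.39. Centring on the median of all genes gave 6 and 1 (40.5% and 4.2%), with a median of 0.77. The repressor E2f8 was at 7.51 (Ctrl) and 9.57 (Med), from which the Hi column differed by 0.49 and -1.57. The pocket protein gene Rbl1 (p107) was at 6.84, 8.75 and 7.95, a difference of -0.80. E2f8 and Ccnb2 were the listed genes 2-fold lower in Hi than in Med, 2 of 102 past the filter over all lists, beside 0.863% of all genes. No listed gene was 2-fold higher, beside 0.682% of all genes. Rbl2 (p130) had a level of 6.51 (Ctrl) and of 8.01 in both others, and E2f6 had levels of 6.89, 8.43 and 8.42. In Ctrl, Rbl1 and Rbl2 lay below the receptors' 95th percentile (6.87), so their differences from Ctrl have no known size.

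Of 18 E2F-regulated S-phase genes past the filter (20 listed, 19 measured), 13 were lower in Hi than in Med (31.3% of all genes) and 5 equal, none by 2-fold, and the median was -0.21. The primase gene Prim1 had levels of 6.45, 8.91 and 8.06 (Ctrl, Med, Hi), a difference of -0.85. Its Ctrl level lay below the receptors' 95th percentile (6.87), so its difference from Ctrl has no known size. The reductase gene Rrm2 was at 9.38, 10.04 and 9.38, a difference of -0.66. The list medians of these 3 groups stayed below 0 under quantile, loess and both centred scalings. Against Ctrl, 7 of the 18 were 2-fold higher in Hi and none lower, where 33.5% and 8.4% of all genes were. Furthest above Ctrl were the replication clamp Pcna (7.27, 11.66 and 11.22) and the reductase Rrm1 (7.59, 10.91 and 10.55).

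**Figure D4:**
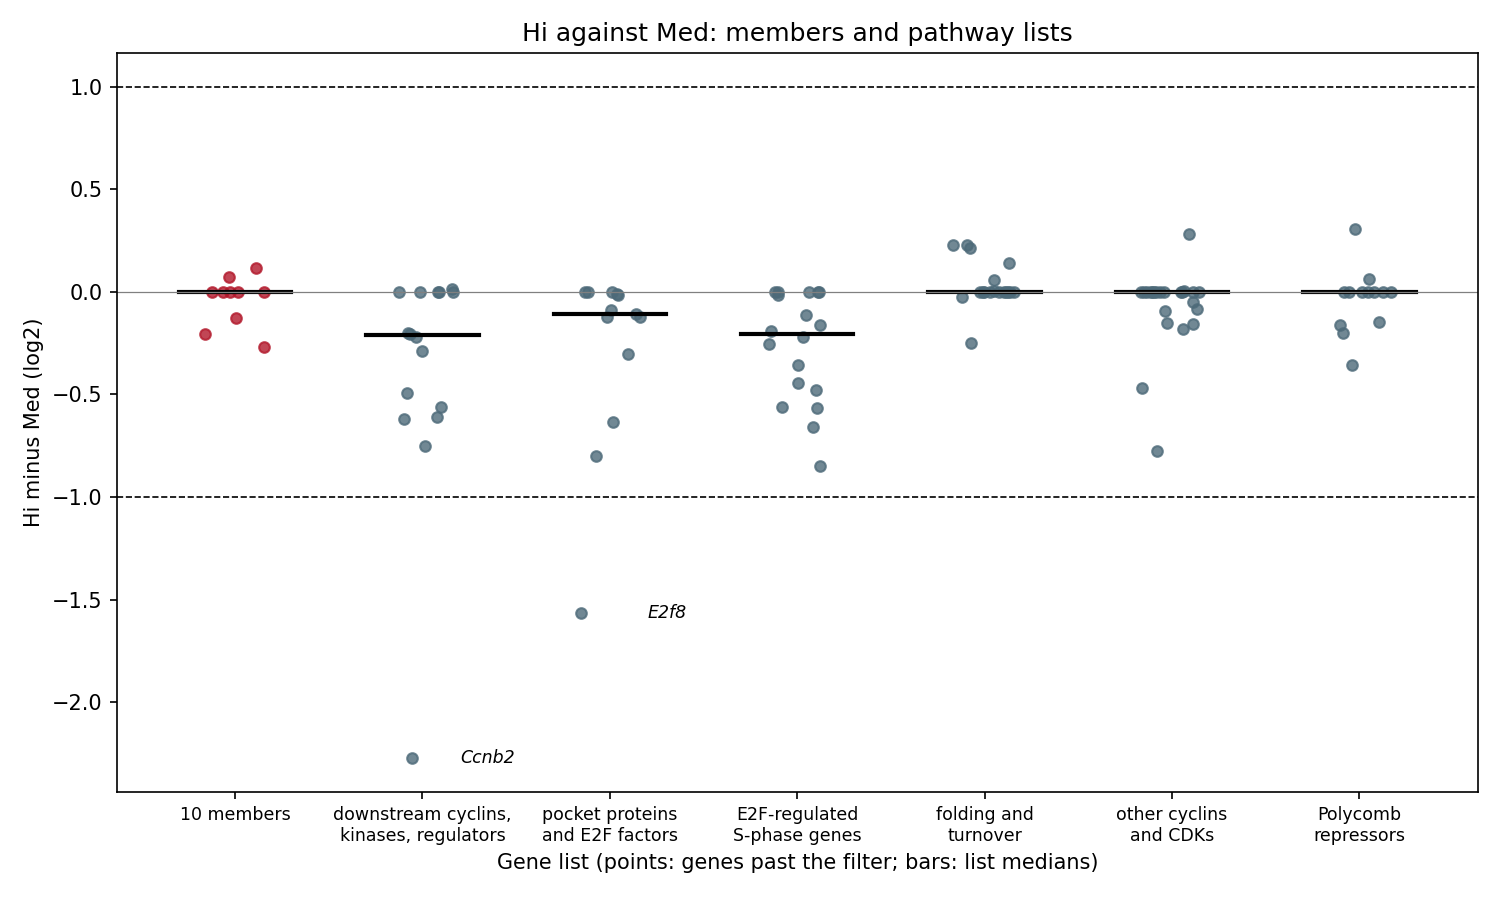
Log2 difference of Hi from Med for the 10 members (red) and the genes past the filter in 6 pathway lists (blue), with black bars at list medians and dashed lines at 2-fold. The members lie between -0.27 and 0.12, and Ccnb2 (-2.27) and E2f8 (-1.57) lie beyond the lower line.

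Genes that fold or degrade the members' proteins were compared next. Of 18 past the filter (19 listed, 18 measured), 9 were 2-fold higher in Hi than in Ctrl and none lower, with a median of 0.95, where 33.5% of all genes were higher. With quantile normalization or cyclic loess 3 were higher (25.2% and 24.8% of all genes), with medians of 0.09 and 0.24. Columns centred on the median of genes past the filter gave 5 higher and 0 lower (22.4% and 16.4% of all genes), with a median of 0.41. Centring on the median of all genes gave 11 and 0 (40.5% and 4.2%), with a median of 1.24. Between Hi and Med 6 were higher, 2 lower and 10 equal. The chaperone Hsp90aa1, which acts with Cdc37 on CDK4, was at 9.14, 12.72 and 12.86. Cops5, a COP9 signalosome subunit that promotes export of p27 from the nucleus, had a level of 6.35 (Ctrl) and of 9.28 in both others. In Ctrl it lay below the receptors' 95th percentile (6.87), so its difference from Ctrl has no known size. Among the ubiquitin ligase genes, the scaffold Cul1 was at 8.92, 10.24 and 9.99. Fbxo31, an F-box gene for cyclin D1, was at 8.41, 9.00 and 9.23.

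The other cyclins and cyclin-dependent kinases give the family background. Of 23 past the filter (27 listed and measured), 11 were 2-fold higher in Hi than in Ctrl and none lower, with a median of 0.54, where 33.5% of all genes were higher and 8.4% lower. Quantile normalization gave 5 higher and 4 lower (25.2% and 18.5% of all genes). Columns centred on the median of genes past the filter gave 5 and 0 (22.4% and 16.4% of all genes). Under both, the median of this list was 0.00. Cyclic loess gave 5 and 1 (24.8% and 9.7% of all genes), with a median of 0.20. Centring on the median of all genes gave 11 and 0 (40.5% and 4.2%), with a median of 0.82. Ccng1, a p53 response gene, was at 7.76, 10.39 and 10.21, and Ccng2 at 6.34 in Ctrl and 9.01 in both others. The Ctrl level of Ccng2 lay below the receptors' 95th percentile (6.87), so its difference from Ctrl has no known size. Cdk17 was at 9.57, 9.91 and 9.13 and the F-box cyclin gene Ccnf at 7.09, 8.10 and 7.63, so both lay lower in Hi than in Med. The differences of Ccnd2 and Cdk6 from Ctrl thus lay inside the range of this family, -0.44 to 2.67 in Hi. Its upper end is Ccng2, and Ccng1 is next at 2.44.

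Over all pathway lists, 41 of 102 genes past the filter were 2-fold higher in Hi than in Ctrl and 3 lower, with a median of 0.54. The shares among all genes past the filter were 33.5% and 8.4%, and their median difference was 0.39. With quantile normalization 24 listed genes were higher and 17 lower (25.2% and 18.5% of all genes). Columns centred on the median of genes past the filter gave 21 and 9 (22.4% and 16.4% of all genes). Cyclic loess gave 23 and 9 (24.8% and 9.7%), and centring on the median of all genes 46 and 3 (40.5% and 4.2%). Over all genes past the filter, 79.9% of the 2-fold differences of Hi were higher in the deposited values, and 57.8% with quantile normalization, 57.7% with centring on genes past the filter, 71.8% with loess and 90.5% with centring on all genes. The first form of centring lowers each difference from Ctrl by 0.60 in Med and 0.54 in Hi, and the second raises it by 0.30 and 0.28.

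Polycomb genes, whose products silence the locus that holds Cdkn2a and Cdkn2b, had a median close to Ctrl in the deposited values. Of 13 past the filter (15 listed, 14 measured), 3 were 2-fold higher in Hi than in Ctrl and none lower, with a median of -0.12. Beside these counts stand 33.5% and 8.4% of all genes past the filter. Suz12, a subunit of Polycomb repressive complex 2, was at 7.85, 10.40 and 10.20, Ezh1 at 8.11 in Ctrl and 9.71 in both others, and Bmi1, the classical INK4 repressor, at 7.96, 9.41 and 9.05. The chromobox gene Cbx7 was at 8.65, 8.23 and 8.54. With quantile normalization 6 of the 13 were 2-fold lower and 1 higher (18.5% and 25.2% of all genes). The median of this list was -0.98 with quantile normalization and -0.71 with cyclic loess. It was -0.66 with columns centred on the median of genes past the filter, and 0.16 with centring on all genes. Where this list lies against Ctrl thus depends on scaling.

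In RefSeq's gene order on mouse chromosome 4, the protein-coding genes on either side of Cdkn2a and Cdkn2b are Mtap and Dmrta1. Mtap, which recycles methylthioadenosine from polyamine synthesis, had levels of 6.06 (Ctrl), 10.80 (Med) and 10.77 (Hi). In Ctrl it lay inside the receptor range, so the deposited differences of 4.74 and 4.71 have no known size. With values below the receptors' 95th percentile raised to it, they were 3.93 in Med and 3.90 in Hi. Dmrta1 was at 6.39, 5.28 and 5.18, below the 95th percentile of receptor genes in each column and below the filter. Cdkn2a and Cdkn2b, which lie between them, showed differences of 0 and 0.72 in Hi.

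The upstream sequences of the kinases are shown because both genes were higher in Med and Hi, and Cdk4 is a textbook target of Myc, which binds the E-box CACGTG. The 250 bases before the start given by RefSeq (GRCm38.p6) were searched on both strands (the motif reads the same on each) and are printed 5′ to 3′ on the gene's plus strand with the motif in capitals.
Cdk4, chr10:127063285-127063534: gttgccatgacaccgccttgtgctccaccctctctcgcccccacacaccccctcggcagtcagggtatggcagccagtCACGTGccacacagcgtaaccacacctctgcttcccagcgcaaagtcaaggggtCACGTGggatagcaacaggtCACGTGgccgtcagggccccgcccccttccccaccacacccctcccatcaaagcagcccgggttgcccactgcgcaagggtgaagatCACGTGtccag
Cdk6, chr5:3343643-3343892: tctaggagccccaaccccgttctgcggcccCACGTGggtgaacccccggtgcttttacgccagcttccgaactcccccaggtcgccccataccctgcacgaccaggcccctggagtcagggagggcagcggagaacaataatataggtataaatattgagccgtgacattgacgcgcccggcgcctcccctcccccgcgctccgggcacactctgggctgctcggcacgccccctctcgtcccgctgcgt
The Cdk4 window held 4 matches, beginning 172, 118, 98 and 11 bases before the start, and the Cdk6 window 1, at 220 bases. Of 32851 windows of this length, 1978 (6.02%) held the motif and 7 held 4 or more. Windows were at hand for 8 members (11 windows, since some genes have several starts), and of these, those of Cdk4 and Cdk6 held a match. Ccnd1 and Ccnd2, the other members 2-fold higher, were not searched. A second search used 4 spellings of the E2F site, TTTCCCGC, TTTGGCGC, TTTCGCGC and TTTGCCGC, on both strands. It matched TTTCCCGC in the window of the upstream Cdkn2a start, 99 bases before it, and 1.86% of all windows held at least 1 of the 4 spellings. A match describes letters and shows no binding, and whether Myc has a part in the differences from Ctrl was not tested.

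Genes with the pattern most like a member's were found by the Euclidean distance over the 3 columns, each gene centred on its own mean, among 9640 named genes. For Ccnd2 they were Rpl32l, Orc6 and Glg1 (distances 0.02). Within a distance of 0.1 there were 41 such genes for Ccnd2. For Ccnd1 the nearest were Sec24b, Atpaf2 and Epb41l4a, with 157 genes within 0.1, and for Cdk6 Zfp638, Ogfr and Niban2, with 128. The nearest to Cdk4 were Tmem131l, Gtf3c3 and Mllt10, with 209 genes within 0.1. Ccnd3 was nearest to Amigo1, Ubl7 and Cd2bp2, and 1606 genes lay within 0.1 of it. With 3 columns, many genes share each pattern.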

How the data were processed

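Per the labels, total RNA of CT26 lines was amplified with random primers and hybridized to an Affymetrix array. GCRMA and Affymetrix Expression Console stand in the submitters' processing notes, without a version or their order. The deposited values are taken as log2, from their range of 2.13 to 14.8; no source used here gives the base, and normalization and any pooling came before deposit. Each group had 1 column (0 columns unmapped). Gene names came from GEO's platform annotation: 21789 probe sets had 1 gene, 1621 several and 12146 none, and 21698 (99.6%) of the first matched RefSeq's table of GRCm38.p6 by gene number. Probe sets of a gene were averaged. Differences between columns were taken with pandas 2.3.3, and alternative scalings over all genes with limma 3.58.1. The calling code was run on simulated columns with changes set well beyond the 2-fold mark. That run checks the code and says nothing about the calls made here. A percentile counts genes past the filter with a smaller difference, ties at their midpoint.

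The members and gene lists were chosen with earlier results of these data known. Named genes were all members, up to 4 per list (the furthest apart between Hi and Med, and between Hi and Ctrl), the neighbours of Cdkn2a and Cdkn2b, and the 3 nearest patterns. Genes without a probe set of their own are not analysed here. With 1 array column per group, precision is unknown.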

Additional observations from a re-analysis of the deposited data

How the results depend on the processing

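No paired analysis was possible because each group has 1 column, and no replicate could be left out. Of 10 members, 4 were 2-fold apart from Ctrl in Med and in Hi. With cyclic loess there were 2 in Med and 2 in Hi (Ccnd2 and Cdk6). Under the other alternatives (both centrings, quantile normalization, the brightest probe set, no filter, a floor at the receptors' 95th percentile, a 1.5-fold mark) the count was 3 to 5, but not always of the same genes: quantile normalization put Ccnd2 and Cdk6 higher, and Ccnd3 (in Hi also Cdkn1b, -1.01) lower. Between Hi and Med it was 0 throughout. The 4 members 2-fold higher as deposited kept their sign under all 7 choices, of which only quantile, loess and both centrings could move them. Ccnd3, 2-fold lower with quantile normalization, was above 0 with columns centred on the median of all genes. The mean of the opposed Cdkn1b probe sets was at -0.87 (Med) and -1.01 (Hi) with quantile normalization, and at 0.23 and 0.00 with that centring. Centring on the median of all genes was added after the data were seen. Receptor genes gauge the background: differences from levels near it have no known size.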
